A study of Mus musculus with 12 samples.

Results

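The collagen genes of the mouse small bowel were described in 12 RNA-seq libraries. A gene was taken as a collagen gene when its symbol was Col, a type number, the letter a and a chain number, and nothing else. This found 44 genes among the 35791 in the files, and 27 of the 44 had enough reads to be tested among 13154 genes. The symbol alone chose the genes, so no expression value entered the choice.

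Collagens are secreted proteins of 3 chains wound into a triple helix. The fibrillar types I, III and V form the cables of the submucosa, of the lamina propria core of the villi and of the smooth muscle coats, and are made mainly by fibroblasts and smooth muscle cells. Type IV collagen forms the sheet-like network of basement membranes under the epithelium and around vessels, nerves and muscle cells, and the multiplexin types XV and XVIII sit at the same membranes. Type VI forms beaded filaments next to them, the FACIT types decorate fibrils, and a few types are membrane proteins.

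The libraries came from small bowel of male C57BL/6 mice aged 8 to 10 weeks and fall into 4 groups of 3. Pre control and Pre 2'-FL were labelled as bowel from before ileocecal resection, the removal of the end of the ileum with the cecum, in an arm without supplement and in the arm of 2'-fucosyllactose (2'-FL, a human milk sugar). Post control and Post 2'-FL were the same arms after resection, and all mice shared the resection protocol and a liquid diet with day 7. The supplement, at 2.5 g/L, started on day 0, the day of surgery, so per the labels the Pre 2'-FL bowel preceded it. One protocol entry dates every bowel to 8 weeks from resection, which does not match the 6 libraries labelled Pre. The label of each library was followed. No segment of bowel is named, and segment, age at collection and resection cannot be told apart between Pre and Post. Each library is labelled as coming from a mouse, but not from which, so p-values measure the spread between these libraries, which may be partly technical.

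Library totals ran from 5663275 to 9385266 estimated reads. Levels are in CPM, counts per library size after scaling for library composition, and a gene is called changed at an adjusted p under 0.05 in edgeR's quasi-likelihood test over all 13154 genes, fitted on all 12 libraries. Epithelial markers summed to 10420 to 18160 CPM, which fits the labelled tissue. The sums were 10660 to 17050 in Pre, 17540 to 18160 in Post control and 10420 to 14480 in Post 2'-FL. Across all genes, levels relative to each gene's mean over the 12 libraries leaned with transcript length. The Spearman rho was 0.265 to 0.496 in the 6 Pre libraries, -0.597 to -0.442 in Post 2'-FL and -0.206 to 0.353 in Post control. Being relative, these values compare libraries and do not say whether long transcripts were abundant within a library. On the same relative levels, the rho with GC content was 0.058 to 0.269 in Pre and 0.028 to 0.142 in Post control. It was -0.387, -0.14 and -0.076 in Post 2'-FL 1, 2 and 3. Tested collagen transcripts were long (median 5930 nt, 3004 nt over all genes tested) and GC-rich (56.1% against 50.3%). Many changes are therefore given also from a fit with offsets for length and GC content, called the corrected fit below. A change printed without a corrected value, as for many single partner genes, is as tested only.

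As tested, most of the 27 collagen chains were lower in Post than in Pre bowel, including the main chains of types I, IV and VI. In the corrected fit fewer were called over both arms. Col1a2 of type I was then not called, at -0.70 ± 0.30 (SE, adjusted p = 0.0751). Col3a1, the chain of type III, was not called in the 2'-FL arm, where its Post values lay within or above the Pre range. With both arms pooled, 16 of the 27 tested collagen genes fell and none rose (0 higher also at an unadjusted p under 0.05 and by DESeq2), where 31.1% of all genes tested fell and 25.3% rose. The corrected fit left 9 of them lower, against 25.3% of all genes lower and 18.6% higher: Col1a1, Col4a1, Col4a2, Col4a6, Col6a1, Col6a2, Col6a4, Col13a1 and Col23a1. Leaving out 1 library gave 6 to 14 corrected calls, the 14 without Pre control 1 and the 6 without Pre control 3 or Pre 2'-FL 2. The median log2 change over the 27 was -1.39, and -0.61 when corrected, beside -0.10 and -0.11 over all genes. Fewer collagen-making cells and less collagen RNA per cell cannot be told apart in whole bowel. The part of the length and GC trend between libraries in the fall, beyond the corrected values, was not tested.

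In the 2'-FL arm 16 collagen genes fell from Pre to Post, where 30.0% of all genes fell and 25.3% rose, and none rose (0 higher also at an unadjusted p under 0.05 and by DESeq2). The corrected fit called 3 lower, Col4a1, Col4a2 and Col23a1, against 21.1% of all genes lower and 16.3% higher, and 0 higher (3 at an unadjusted p under 0.05). The 3 became 5 without Pre 2'-FL 1, 1 without Pre 2'-FL 3 or Post 2'-FL 3, and 0 without any 1 of the other libraries of the arm. In the control arm 5 fell, where 6.33% of all genes fell and 4.42% rose: Col4a1, Col4a2, Col4a6, Col6a1 and Col16a1. The 5 rested on single libraries. Without Pre control 1 the count was 18 and without Post control 3 it was 7, while it was 0 without any 1 of Pre control 2, Pre control 3, Post control 1 or Post control 2. The corrected fit called 1, Col4a6, against 6.58% of all genes lower and 5.46% higher. Between arms after resection, Col3a1 and Col6a3 were higher with 2'-FL, where 18.8% of all genes were higher, and Col20a1 was lower, where 19.3% were lower.

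**Figure D1:**
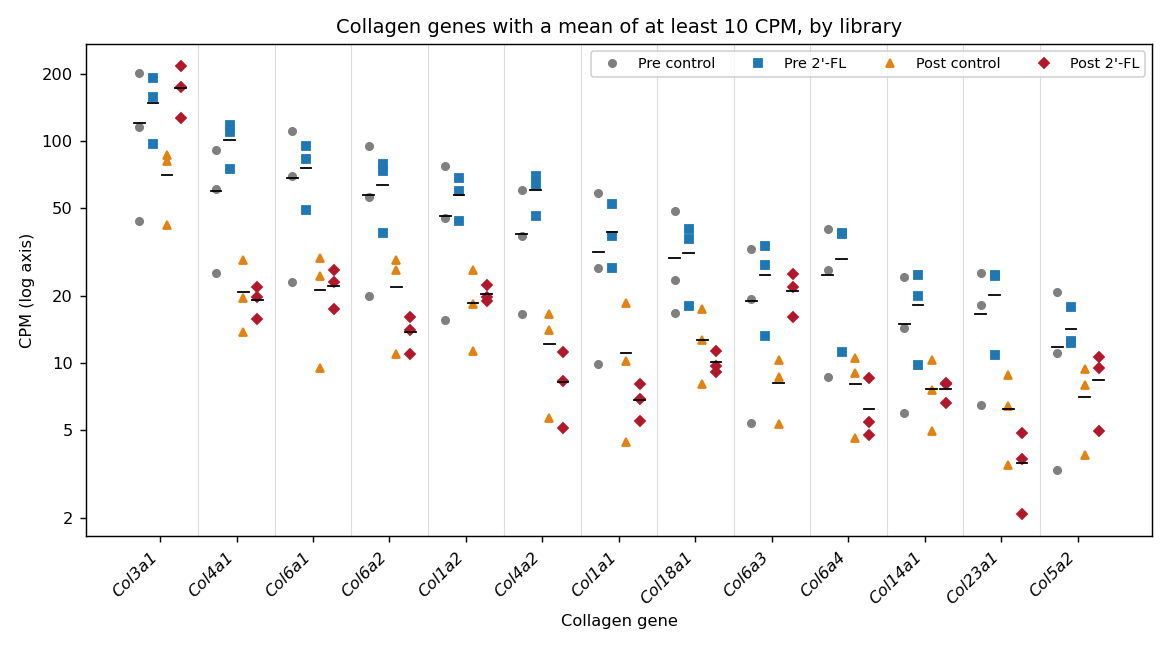
CPM on a log axis for the 13 collagen genes with a mean of at least 10 CPM; each point is 1 library, black bars are group means of 3 libraries. Col3a1 stands as high in Post 2'-FL as in Pre, while Col4a1 and Col1a1 sit low in all 6 Post libraries; Pre control 1 is the lowest Pre library for 13 of the 13 genes.

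Col3a1, the single chain of type III collagen, had the highest level per length of all 44 genes, 23.0 CPM per kb of transcript. It read 43.8, 115 and 202 CPM in the Pre control libraries, 97.0, 192 and 158 in Pre 2'-FL, 81.6, 42.0 and 86.6 in Post control, then 217, 127 and 176 in Post 2'-FL. The Post 2'-FL values lay within or above the Pre range and did not overlap Post control, which was at or below the lower Pre values. The change between arms after resection was 1.30 ± 0.44 (SE, adjusted p = 0.0302) on the log2 scale, and 2.04 ± 0.47 (SE, adjusted p = 0.0108) in the corrected fit. The call was lost without Post control 2, without Post 2'-FL 1 or without Post 2'-FL 3, and in the corrected fit only without Post 2'-FL 1. From Pre to Post, Col3a1 changed by -0.78 ± 0.43 (SE, adjusted p = 0.245) in the control arm and by 0.22 ± 0.43 (SE, adjusted p = 0.683) in the 2'-FL arm, or 1.22 ± 0.46 (SE, adjusted p = 0.0522) when corrected, none of them called.

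Col1a1 and Col1a2 encode the 2 chains of type I collagen, the main fibril of gut wall. Col1a1 read 9.90, 26.8 and 58.1 CPM in the Pre control libraries, 26.9, 52.2 and 37.4 in Pre 2'-FL, 10.2, 4.38 and 18.5 in Post control, then 5.49, 8.00 and 6.88 in Post 2'-FL. The 2'-FL arm shows a gap between its Pre and Post libraries, whereas the control arm overlaps through Pre control 1 and Post control 3. It fell in the 2'-FL arm, with a log2 change of -2.51 ± 0.56 (SE, adjusted p = 0.00201); the corrected value was -1.18 ± 0.54 (SE, adjusted p = 0.103), and the control arm gave -1.48 ± 0.53 (SE, adjusted p = 0.0804). Col1a2 read 15.6, 44.7 and 76.9 CPM in the Pre control libraries, 43.7, 68.3 and 59.7 in Pre 2'-FL, 18.5, 11.3 and 26.1 in Post control, then 19.9, 19.1 and 22.5 in Post 2'-FL. Its pattern followed Col1a1, with less depth of fall: -1.48 ± 0.43 (SE, adjusted p = 0.00936) in the 2'-FL arm, -0.38 ± 0.43 (SE, adjusted p = 0.507) when corrected, and -1.28 ± 0.42 (SE, adjusted p = 0.0647) in the control arm.

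The stretch upstream of the start site is shown for Col3a1 and Col1a2, the 2 fibrillar genes with the highest level per length, since their levels parted in Post 2'-FL. The text is RefSeq's for GRCm38.p6, 5′ to 3′ on the plus strand, which both genes use. Capitals mark TATAAA in Col3a1 and GGGCGG in Col1a2.
Col3a1, chr1:45311288-45311537: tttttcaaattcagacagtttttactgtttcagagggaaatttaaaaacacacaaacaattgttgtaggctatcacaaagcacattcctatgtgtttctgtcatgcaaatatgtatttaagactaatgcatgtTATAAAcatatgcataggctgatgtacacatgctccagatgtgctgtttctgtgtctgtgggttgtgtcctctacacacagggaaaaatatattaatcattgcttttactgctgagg
Col1a2, chr6:4505370-4505492: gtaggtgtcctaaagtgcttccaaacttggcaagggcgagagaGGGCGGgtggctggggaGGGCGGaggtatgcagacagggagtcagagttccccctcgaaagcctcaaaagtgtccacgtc
The Col3a1 stretch covers the 250 bases before its start and had 35.2% GC, with TATAAA 117 bases upstream. Of Col1a2 the 123 bases outside annotated exons are printed, with 59.3% GC and 2 copies of GGGCGG. The 127 exon bases left out lie nearly all between the printed stretch and the start. They hold a CCAAT 109 bases upstream of the start. Searched on both strands in the 250 bases upstream, TATAAA occurred in 12.4% of 32851 promoters and in 14.3% of the 35 collagen promoters in the table, CCAAT in 33.8% and 34.3%, and GGGCGG in 32.7% and 60.0%. These are letter matches and say nothing of which factors bind. Of the 2 other chains the results turn on, Col4a1 and Col4a2, the whole window is exon of the partner gene, and none is printed.

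The remaining fibrillar genes are the type V chains, which set fibril diameter, and Col27a1. Col5a2 read 3.30, 11.1 and 20.9 CPM in the Pre control libraries, 12.3, 17.8 and 12.5 in Pre 2'-FL, 9.39, 3.83 and 7.91 in Post control, then 10.6, 4.92 and 9.48 in Post 2'-FL. Its groups overlapped in the control arm, while in the 2'-FL arm the Post values lay below the Pre values, with changes of -0.72 ± 0.50 (SE, adjusted p = 0.343) and -0.78 ± 0.50 (SE, adjusted p = 0.2), neither called. Corrected, the changes were -0.46 ± 0.52 (SE, adjusted p = 0.572) and 0.18 ± 0.52 (SE, adjusted p = 0.804), and the groups overlapped in each arm. Col5a1, with a mean of 9.95 CPM, fell in the 2'-FL arm, with a log2 change of -1.54 ± 0.50 (SE, adjusted p = 0.0171), but the corrected value was 0.01 ± 0.47 (SE, adjusted p = 0.995). The call was lost without Pre 2'-FL 2 or without Post 2'-FL 1. Col5a3, at 0.381 to 4.46 CPM over the libraries, fell, with a log2 change of -1.78 ± 0.62 (SE, adjusted p = 0.0252) in the 2'-FL arm and of -0.29 ± 0.62 (SE, adjusted p = 0.737) in the corrected fit, where it was not called. The first call was lost without Pre 2'-FL 1, without Post 2'-FL 1 or without Post 2'-FL 2. Col27a1, at 0.378 to 4.15 CPM, was called in no comparison.

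As tested, Col4a2 of type IV collagen had the largest fall in the 2'-FL arm among the 13 genes, whereas in the corrected fit that of Col23a1 was slightly larger. Col4a1 and Col4a2, whose products join 2 to 1 in the common network, lie head to head on chromosome 8. Their gene bounds in GRCm38 are chr8:11198423-11312889 and chr8:11312805-11449287. These bounds overlap, so reads from the overlapping ends cannot be assigned without strand. The start sites of the promoter windows, 11312826 and 11312805, are 21 bases apart and differ for Col4a1 from its gene bound. Col4a1 read 25.5, 60.8 and 91.4 CPM in the Pre control libraries, 74.4, 109.8 and 118 in Pre 2'-FL, 19.6, 13.7 and 29.0 in Post control, then 15.7, 22.0 and 19.7 in Post 2'-FL. No Post library reached the Pre 2'-FL values, and of the Pre libraries only Pre control 1 fell among the Post values. The change was -2.39 ± 0.39 (SE, adjusted p = 0.000214) in the 2'-FL arm, called without any 1 library of the arm, and -1.50 ± 0.38 (SE, adjusted p = 0.0254) in the control arm. Corrected, it was -1.03 ± 0.36 (SE, adjusted p = 0.0387) and -1.14 ± 0.36 (SE, adjusted p = 0.0538). The first call was kept only when Pre 2'-FL 1 was left out, and was lost without any other library of the arm.

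Col4a2 read 16.6, 37.3 and 60.2 CPM in the Pre control libraries, 46.1, 69.9 and 63.6 in Pre 2'-FL, 14.0, 5.66 and 16.6 in Post control, then 5.11, 8.30 and 11.2 in Post 2'-FL. The Pre and Post libraries touched nowhere within the 2'-FL arm, and in the control arm the highest Post value stayed just under the lowest Pre value. It fell, with a log2 change of -2.87 ± 0.46 (SE, adjusted p = 0.000188) in the 2'-FL arm and of -1.63 ± 0.43 (SE, adjusted p = 0.0297) in the control arm, and of -1.39 ± 0.41 (SE, adjusted p = 0.0184) and -1.20 ± 0.39 (SE, adjusted p = 0.062) when corrected, the last not called. The corrected call in the 2'-FL arm was lost without Pre 2'-FL 2, without Post 2'-FL 1 or without Post 2'-FL 2. The ratio of Col4a1 to Col4a2 per kb was 1.48 to 1.80 in the Pre libraries, 1.36 to 2.36 in Post control and 1.72 to 3.00 in Post 2'-FL.

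The minor type IV chains, known from kidney and from smooth muscle basement membranes, were low. Col4a5 read 0.762, 4.87 and 8.78 CPM in the Pre control libraries, 1.33, 4.99 and 4.91 in Pre 2'-FL, 2.00, 0.730 and 1.20 in Post control, then 6.81, 2.77 and 3.90 in Post 2'-FL. It was called in no comparison as tested, and with 2'-FL after resection the corrected change was 2.48 ± 0.79 (SE, adjusted p = 0.0379), a call lost without any 1 of the libraries compared except Post 2'-FL 2. Col4a6 read 0.635, 2.84 and 2.97 CPM in the Pre control libraries, 0.241, 0.936 and 2.20 in Pre 2'-FL, 0, 0 and 0.300 in Post control, then 0, 0.154 and 0.743 in Post 2'-FL. Its Post control libraries held 0, 0 and 3 counts, so its fall is called but no size is given. Col4a3, at 0.154 to 2.85 CPM, fell over both arms, with a log2 change of -1.64 ± 0.54 (SE, adjusted p = 0.0177), or -0.92 ± 0.56 (SE, adjusted p = 0.195) in the corrected fit, where it was not called.

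Both multiplexins, whose ends can be cut off as endostatin-like fragments, fell in the 2'-FL arm. Col18a1 read 16.8, 23.5 and 48.4 CPM in the Pre control libraries, 18.0, 36.2 and 40.1 in Pre 2'-FL, 12.6, 8.04 and 17.5 in Post control, then 9.08, 9.69 and 11.3 in Post 2'-FL. Pre 2'-FL 1 was only slightly above the highest of the 6 Post values, and Pre control 1 was below it. The fall was -1.64 ± 0.40 (SE, adjusted p = 0.00341) in the 2'-FL arm, -0.37 ± 0.40 (SE, adjusted p = 0.484) when corrected and -1.20 ± 0.39 (SE, adjusted p = 0.0593) in the control arm. Col15a1, a vessel and muscle membrane collagen with a mean of 9.66 CPM, changed by -2.09 ± 0.58 (SE, adjusted p = 0.00768), -1.01 ± 0.61 (SE, adjusted p = 0.209) and -1.36 ± 0.57 (SE, adjusted p = 0.13) in the same order.

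Type VI collagen is built from the products of Col6a1 and Col6a2 with a longer chain, such as that of Col6a3, and the levels of the long chain parted from those of its partners. Col6a1 read 23.2, 69.3 and 111 CPM in the Pre control libraries, 48.7, 94.8 and 82.9 in Pre 2'-FL, 24.6, 9.50 and 29.6 in Post control, then 17.4, 23.1 and 26.2 in Post 2'-FL. Post values were under Pre values in the 2'-FL arm, and in the control arm they overlapped with Pre control 1. It fell, with a log2 change of -1.76 ± 0.48 (SE, adjusted p = 0.00662) in the 2'-FL arm and of -1.66 ± 0.47 (SE, adjusted p = 0.0396) in the control arm, or of -0.91 ± 0.47 (SE, adjusted p = 0.144) and -1.46 ± 0.47 (SE, adjusted p = 0.0573) when corrected, neither of those called. Col6a2 read 19.9, 56.1 and 94.7 CPM in the Pre control libraries, 38.4, 78.9 and 72.9 in Pre 2'-FL, 26.2, 11.0 and 29.0 in Post control, then 11.0, 16.1 and 14.1 in Post 2'-FL. It fell in the 2'-FL arm, with a log2 change of -2.20 ± 0.48 (SE, adjusted p = 0.00169). It was -1.24 ± 0.48 (SE, adjusted p = 0.0553) when corrected and -1.36 ± 0.46 (SE, adjusted p = 0.0703) in the control arm.

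Col6a3 read 5.33, 19.4 and 32.5 CPM in the Pre control libraries, 13.3, 33.5 and 27.7 in Pre 2'-FL, 8.62, 5.30 and 10.3 in Post control, then 21.9, 16.1 and 25.3 in Post 2'-FL. The Post 2'-FL libraries lay among the Pre values and above all 3 Post control libraries. The difference between arms after resection was 1.36 ± 0.50 (SE, adjusted p = 0.0442), a call held only when Post 2'-FL 2 was left out and lost without any 1 of the other libraries compared. Corrected, it was 2.43 ± 0.54 (SE, adjusted p = 0.00894), called also without any 1 of the 6 libraries. The ratio of Col6a3 to Col6a1 per kb was 0.0931 to 0.143 in Pre, 0.141 to 0.226 in Post control and 0.284 to 0.511 in Post 2'-FL. On corrected levels these ranges were 0.0831 to 0.120, 0.132 to 0.271 and 0.367 to 0.632.

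Col6a4 and Col6a5 encode other long chains. Col6a4 read 8.63, 26.3 and 40.1 CPM in the Pre control libraries, 11.2, 38.2 and 38.4 in Pre 2'-FL, 10.5, 4.57 and 9.01 in Post control, then 4.73, 5.38 and 8.55 in Post 2'-FL. It fell in the 2'-FL arm, with a log2 change of -2.23 ± 0.55 (SE, adjusted p = 0.00357); the corrected value was -0.99 ± 0.57 (SE, adjusted p = 0.184) and the control arm gave -1.63 ± 0.52 (SE, adjusted p = 0.0585). Col6a5, at 0.844 to 4.83 CPM, was called in no comparison in either fit.

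Among the FACIT genes, whose products bind along fibrils, Col14a1 read 5.97, 14.4 and 24.4 CPM in the Pre control libraries, 9.77, 25.0 and 20.0 in Pre 2'-FL, 7.54, 4.93 and 10.3 in Post control, then 8.13, 6.61 and 7.99 in Post 2'-FL. It fell in the 2'-FL arm, with a log2 change of -1.26 ± 0.45 (SE, adjusted p = 0.0274), a call that held only when Pre 2'-FL 1 was left out, and of -0.38 ± 0.46 (SE, adjusted p = 0.531) when corrected. Col12a1, at 3.65 to 5.85 CPM in Post control and 7.23 to 13.4 in Post 2'-FL, showed groups that did not overlap. Its difference between those arms was 1.24 ± 0.47 (SE, adjusted p = 0.0502) as tested and 1.95 ± 0.51 (SE, adjusted p = 0.0169) when corrected, a call lost without Post control 3, without Post 2'-FL 1 or without Post 2'-FL 3. Col16a1, at 1.40 to 7.59 CPM in Pre and 0.730 to 2.27 in Post, fell in both arms, the log2 value being -1.91 ± 0.51 (SE, adjusted p = 0.0319) in control and -1.26 ± 0.50 (SE, adjusted p = 0.0443) with 2'-FL. The 2'-FL arm call held only when Pre 2'-FL 1 was left out. Its corrected change in the 2'-FL arm had the other sign, 0.12 ± 0.52 (SE, adjusted p = 0.876), and between arms after resection it was 1.77 ± 0.59 (SE, adjusted p = 0.0449). That last call held only when Post 2'-FL 2 was left out. Col20a1 read 3.17, 4.36 and 3.08 CPM in the Pre control libraries, 4.22, 2.81 and 2.37 in Pre 2'-FL, 4.31, 4.20 and 4.10 in Post control, then 2.65, 2.00 and 1.11 in Post 2'-FL. It was lower with 2'-FL after resection, with a log2 change of -1.12 ± 0.36 (SE, adjusted p = 0.0249), a call lost without Post control 1, without Post control 3 or without Post 2'-FL 3, and of -0.31 ± 0.38 (SE, adjusted p = 0.589) when corrected.

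The membrane collagens Col23a1 and Col13a1, which span the plasma membrane, fell in the 2'-FL arm. Col23a1 read 6.47, 18.2 and 25.4 CPM in the Pre control libraries, 10.8, 25.0 and 24.5 in Pre 2'-FL, 8.77, 3.47 and 6.41 in Post control, then 2.08, 3.69 and 4.83 in Post 2'-FL. It fell, with a log2 change of -2.49 ± 0.51 (SE, adjusted p = 0.00103) there, and of -1.43 ± 0.52 (SE, adjusted p = 0.0446) when corrected; the control arm gave -1.41 ± 0.47 (SE, adjusted p = 0.0653). The corrected call was lost without any 1 library of the arm except Pre 2'-FL 1, and the corrected groups overlapped. Col13a1, at 1.69 to 7.24 CPM in Pre and 0.365 to 2.46 in Post, fell in the 2'-FL arm, with a log2 change of -2.46 ± 0.71 (SE, adjusted p = 0.0098), or -1.81 ± 0.74 (SE, adjusted p = 0.0687) when corrected, which was not called. Of the short-chain genes, Col8a2 fell in the 2'-FL arm, with a log2 change of -1.57 ± 0.64 (SE, adjusted p = 0.0485); the groups overlapped and the corrected value was -0.53 ± 0.62 (SE, adjusted p = 0.527). The call as tested held only when Pre 2'-FL 3 was left out. Col8a1, at 0.154 to 1.10 CPM in Post control and 0.929 to 3.97 in Post 2'-FL, was higher with 2'-FL in the corrected fit, 2.01 ± 0.66 (SE, adjusted p = 0.0429), against 1.68 ± 0.67 (SE, adjusted p = 0.0607) as tested. That corrected call held only without Post 2'-FL 2 or without Post 2'-FL 3.

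**Figure D2:**
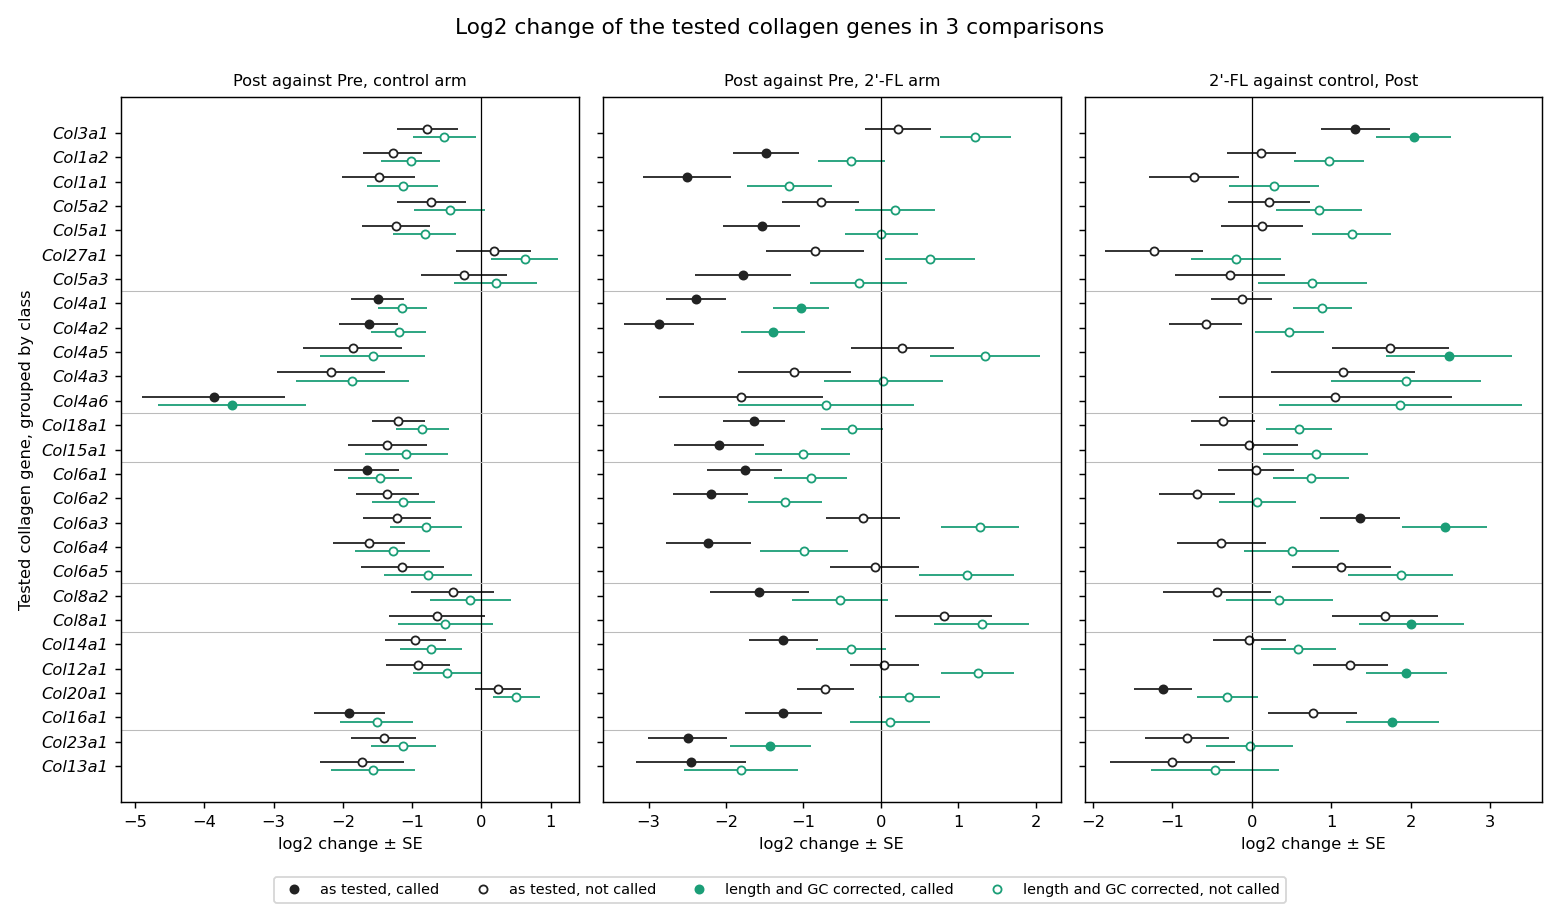
Log2 change with its standard error for the 27 tested collagen genes, grouped by class from fibrillar at the top through type IV, multiplexin, type VI, short chain and FACIT to transmembrane at the bottom; black as tested, green after the length and GC correction, filled where called. In the 2'-FL arm the corrected values of Col3a1, Col6a3 and Col12a1 lie right of 0, while those of Col4a1, Col4a2 and Col23a1 lie left of it and are called.

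Too low to judge were 17 genes, with at most 15 counts in any library and at most 54 counts over the 12. They were the fibrillar Col11a2, Col24a1, Col11a1 and Col2a1, the type IV gene Col4a4, the type VI gene Col6a6, and Col7a1, the anchoring fibril of squamous epithelia. Col9a1, Col9a2, Col9a3, Col19a1 and Col22a1 among the FACIT genes, Col17a1 and Col25a1 among the membrane collagens, and Col10a1, Col26a1 and Col28a1 completed the list. Col19a1 had 0 counts in all 12 libraries, where 3 counts correspond to 0.300 to 0.567 CPM. Col9a2, a cartilage FACIT, had counts in each of the 6 Pre libraries, at 0.102 to 1.56 CPM. It had 0 in each of the 6 Post libraries. Of 3 cartilage markers, Acan and Matn1 had 0 counts throughout. The remaining marker read 0 to 0.312 CPM in Pre and 0 to 0.154 in Post. Col7a1 read 0.254, 0.406 and 0.119 CPM in the Pre control libraries, 0.482, 0.156 and 0 in Pre 2'-FL, 0.923, 1.46 and 1.00 in Post control, then 0.378, 0.308 and 0.186 in Post 2'-FL. Its Post control values lay above all others, on at most 10 counts a library. Both patterns were picked after the values were seen and have no test.

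Summed over genes, the level of fibrillar collagen set against type IV was higher in each Post library than in any Pre library, which a plain mean over genes did not show. Summed per kb of transcript over each class, the ratio of fibrillar to type IV was 1.73 to 2.67 in the 6 Pre libraries. The Post control libraries gave 4.13, 3.85 and 3.67, the Post 2'-FL libraries 10.7, 5.82 and 7.14, so that the Pre, Post control and Post 2'-FL ranges did not overlap. On corrected levels the ratio was 1.85 to 2.94, 3.66 to 4.03 and 5.11 to 7.93 in the same order. Col3a1 made up 50.0 to 57.2% of the fibrillar sum in Pre, 58.3 to 64.9% in Post control and 76.6 to 84.8% in Post 2'-FL. Without Col3a1 the ratio was 0.752 to 1.23 in Pre, 1.40 to 1.53 in Post control and 1.36 to 1.63 in Post 2'-FL, where the 2 Post ranges overlapped. On corrected levels the ratio without Col3a1 was 0.784 to 1.291, 1.35 to 1.505 and 1.284 to 1.427 in the same order. There the Post 2'-FL range overlapped the upper end of the Pre range.

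The class difference depends on how genes are weighted. As a plain mean of log2 CPM over 7 fibrillar and 5 type IV genes, which gives low genes the weight of high ones, fibrillar minus type IV rose by 1.04 from Pre to Post in the control arm, where the pooled SD between libraries of a group was 0.117, and by 0.21 in the 2'-FL arm, where it was 0.511. From summed CPM the same differences were 0.74 and 1.97. Between arms after resection the sign turned, from -0.45 by the plain mean to 0.96 by the sum. By the plain mean the libraries overlapped, at 0.41 to 1.73 in Pre and 1.00 to 1.83 in Post, and Pre 2'-FL 1, at 1.73, was above 4 of the 6 Post libraries. No test was made of these class values.

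Within the fibrillar class, type III parted from type I. Per kb, Col3a1 to Col1a1 was 3.70 to 4.71 in Pre, 4.98 to 10.2 in Post control and 16.9 to 42.2 in Post 2'-FL. On corrected levels the ranges were 4.14 to 4.92, 5.05 to 9.85 and 14.8 to 28.0. Col3a1 to Col1a2 followed the same order, at 2.13 to 2.70, 3.19 to 4.25 and 6.41 to 10.5. Col1a2 to Col1a1, chains of 1 molecule that are built in a fixed proportion, was 1.45 to 1.85 in Pre, 1.56 to 2.86 in Post control and 2.64 to 4.01 in Post 2'-FL. The ratio of Col1a1 to Col4a1, a fibrillar and a basement membrane chain, spanned 0.355 to 0.710 in Pre and 0.357 to 0.712 in Post, nearly the same range.

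**Figure D3:**
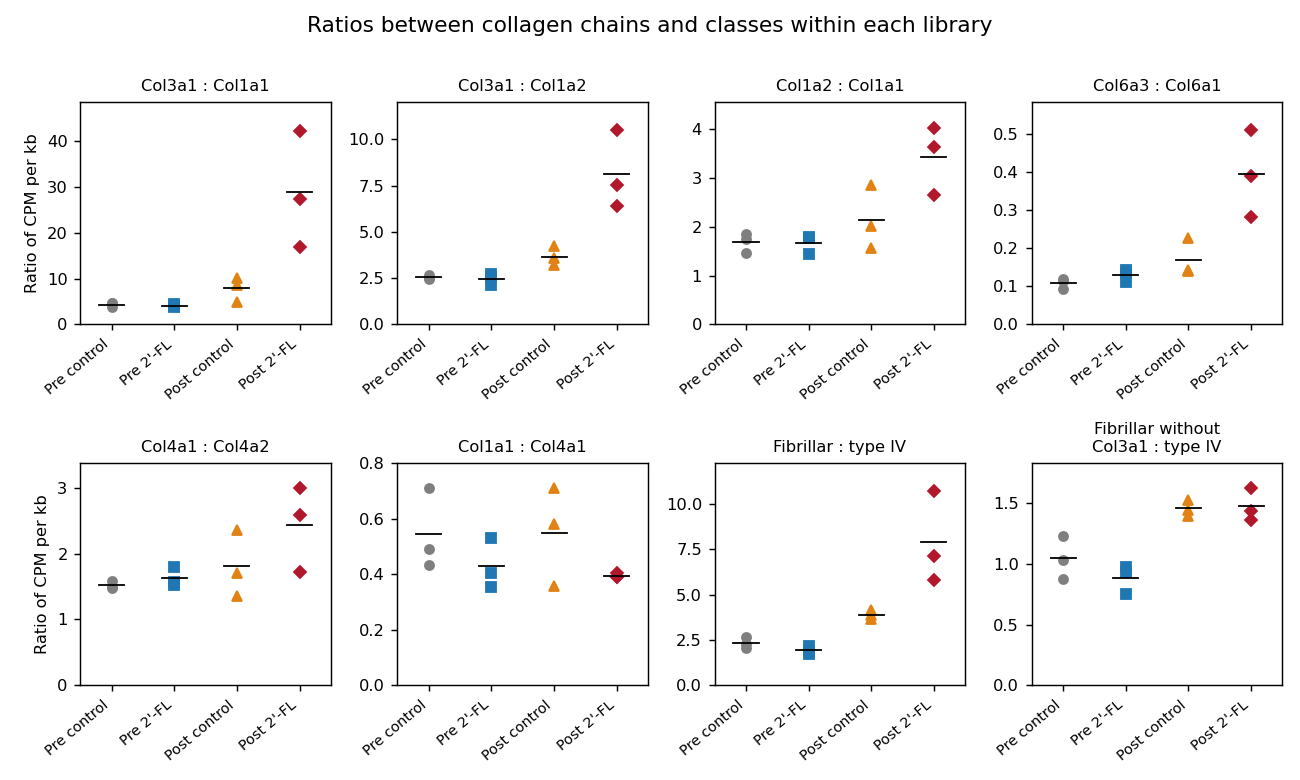
Ratios of CPM per kb between chains or class sums in each library, on axes from 0; points are libraries, black bars group means of 3. Col3a1 to Col1a1, Col3a1 to Col1a2, Col6a3 to Col6a1 and fibrillar to type IV are higher in Post 2'-FL than in any other library, whereas Col1a1 to Col4a1 overlaps across all groups.

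The split among collagens also ran along GC content. Over the 27 tested genes, change and GC content had a Spearman rho of -0.58 in the 2'-FL arm, -0.62 between arms after resection and -0.07 in the control arm, beside -0.22, -0.25 and -0.09 over the 13053 genes with a known transcript. With length the rho over the collagens was 0.26, 0.40 and -0.03, whereas over all genes it was -0.56, -0.50 and -0.28. Col3a1 and Col6a3 have 52.5% and 54.5% GC, and Col1a1 and Col4a2 have 58.9% and 60.6%. These are descriptions over genes that share libraries; the part of GC content in the split beyond the corrected values above was not tested.

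**Figure D4:**
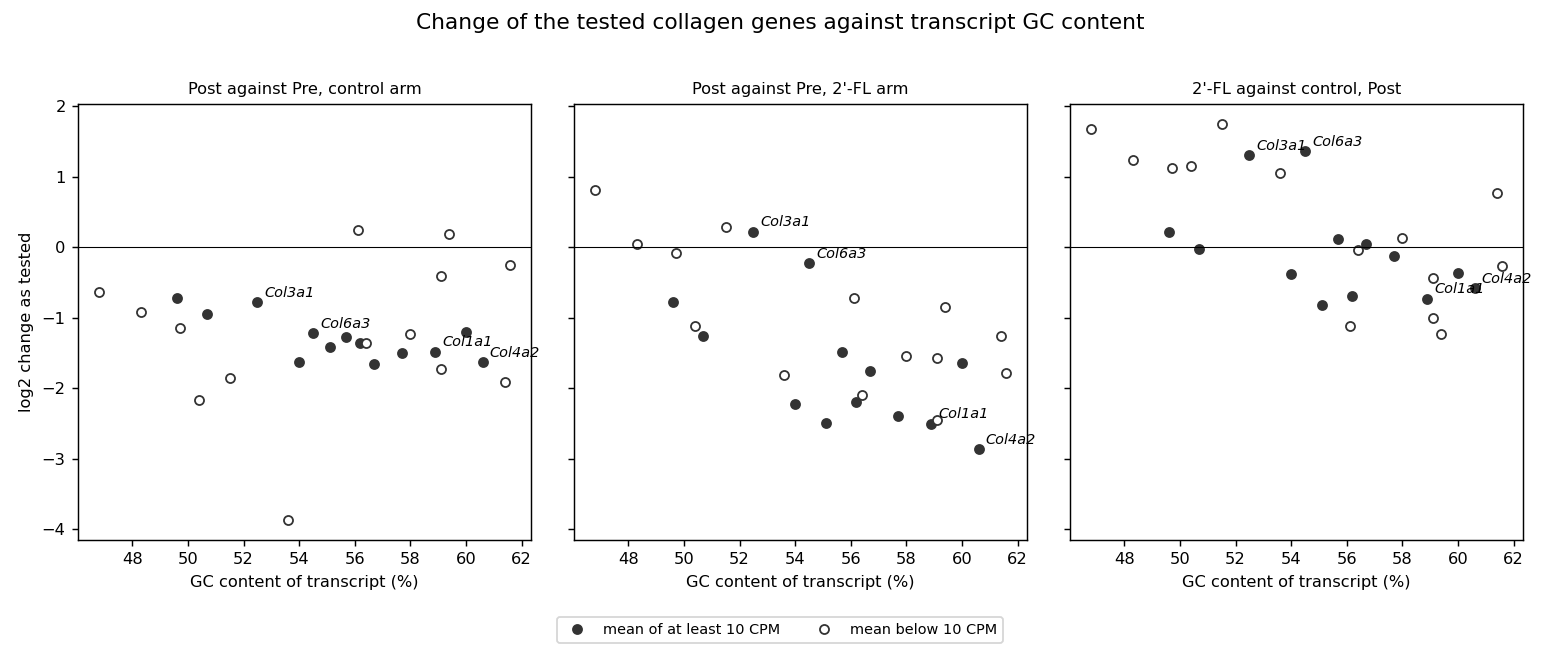
Log2 change as tested against GC content of the transcript for the 27 tested collagen genes in 3 comparisons; filled points are the 13 genes given by library. In the 2'-FL arm and between arms after resection the points slope down with GC (rho -0.58 and -0.62), while in the control arm they do not (rho -0.07).

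Before resection no collagen gene was called between the arms in either fit, beside 0.0152% of all genes lower and 0.0% higher in both. DESeq2 also called 0, and at an unadjusted p under 0.05 only Col5a3 was higher, with Col4a1 added in the corrected fit. The interaction, which asks whether the change from Pre to Post differed between arms, called 0 collagen genes in either direction, where 8.03% of all genes were lower and 7.47% higher. DESeq2 also called 0, and at an unadjusted p under 0.05 only Col4a5 was higher, by 2.14 ± 0.98 (SE, adjusted p = 0.144). For Col3a1 the interaction was 1.00 ± 0.61 (SE, adjusted p = 0.273), or 1.75 ± 0.65 (SE, adjusted p = 0.149) when corrected, and for Col6a3 it was 0.99 ± 0.68 (SE, adjusted p = 0.332) and 2.08 ± 0.72 (SE, adjusted p = 0.128). A difference between the arms in the course of these 2 genes was therefore not shown. The corrected interaction also called 0, beside 0.0076% of all genes lower and 0.0% higher, with 5 collagen genes higher at an unadjusted p under 0.05, namely Col3a1, Col6a3, Col12a1, Col16a1 and Col4a5. The corrected fit called 6 collagen genes higher with 2'-FL after resection, where 9.86% of all genes were higher, and 0 lower, where 12.8% were: Col3a1, Col6a3, Col12a1, Col16a1, Col4a5 and Col8a1.

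Likeness of pattern over the 12 libraries was measured as Pearson's r of log2 CPM among the 8349 genes compared. Col1a1 was closest to Col6a2 (0.984), Lamc1 (0.973), Col4a2 (0.969), Anxa5 (0.966) and Col6a1 (0.965). Col4a1 was closest to Col4a2 (0.975), Lamc1 (0.975), Itih5 (0.969), Nid1 (0.969) and Anxa5 (0.968). Col3a1, which was added to this look after its values were seen, had among its closest genes Ifitm3 (0.964), Cd44 (0.963), Col6a3 (0.962) and Sparc (0.958). Its r with Col1a1 was 0.416. All r share the same libraries and their depth and length trend.

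Genes that bind or line collagen were counted by role, over both arms, where 31.1% of all genes fell and 25.3% rose, and 25.3% and 18.6% in the corrected fit. Of 14 tested basement membrane partners, 10 fell from Pre to Post over both arms, and 4 in the corrected fit, which called 2 higher, both near the shares over all genes. Lamc1, the common laminin gamma chain, changed by -1.82 (adjusted p = 7.81e-05) and by -1.03 when corrected (adjusted p = 0.00484). Hspg2, which encodes perlecan, changed by -1.72 (adjusted p = 0.00015) and by -0.37 when corrected (adjusted p = 0.296). Lamb2 and Lama5, further laminin chains, changed by -1.51 and -1.73 (adjusted p = 0.000176 and 0.000331).

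Of 10 tested partners of fibrils, 6 fell over both arms and 4 in the corrected fit. Eln, the elastin gene, changed by -1.41 (adjusted p = 0.000254), and Bgn, the small proteoglycan biglycan, by -1.64 (adjusted p = 0.000453). Tnxb and Fn1 changed by -1.62 and -1.20 (adjusted p = 0.000372 and 0.00144). Between arms after resection, 6 of the 10 were higher with 2'-FL and 7 in the corrected fit, beside the 18.8% and 9.86% of all genes given above. Sparc, a collagen-binding protein named here after its values were seen, read 31.2, 82.4 and 126 CPM in the Pre control libraries, 95.5, 121 and 101 in Pre 2'-FL, 57.9, 37.6 and 46.5 in Post control, then 156, 96.0 and 123 in Post 2'-FL. Its Post 2'-FL libraries were all above Post control, as those of Col3a1 were, with a difference of 1.40 (adjusted p = 0.00873).

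Of 16 tested genes of chain modification and folding, 7 fell and 2 rose over both arms, beside the 31.1% and 25.3% of all genes, and 7 fell and 1 rose in the corrected fit. Plod3 and Plod1, lysyl hydroxylases, changed by -1.06 and -1.06 (adjusted p = 0.000377 and 0.000904), and Creb3l1, a transcription factor of collagen secretion, by -1.48 (adjusted p = 0.000485). Ppib, a prolyl isomerase, was higher by 0.66 (adjusted p = 0.000981), but changed by -0.03 when corrected (adjusted p = 0.815). Of 8 tested collagen receptors 6 fell, among them Itga2 with a log2 change of -2.04 and Ddr2 with one of -1.49 (adjusted p = 7.74e-05 and 0.000142), and 4 fell in the corrected fit. Of 7 tested proteases and inhibitors 4 fell, Timp3, Mmp14, Mmp2 and Timp2, with log2 changes of -1.90, -1.55, -1.87 and -1.16, and 5 in the corrected fit. Of 10 tested genes of the TGF-beta axis 4 fell, Tgfbr2, Smad3, Tgfb1 and Tgfb2, with log2 changes of -1.11, -1.10, -1.30 and -1.24, a share close to the 31.1% of all genes; the corrected fit called 3 lower and 1 higher. The 7 tested genes of propeptide cleavage and crosslinking had a median change of -0.25, and -0.02 when corrected, where 2 were called higher, among them Loxl3, a lysyl oxidase-like enzyme, at 0.88 (adjusted p = 0.00617).

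Markers of the cells that could hold collagen did not all move one way from Pre to Post. Over both arms the median log2 change was 0.1 for fibroblast and -0.28 for smooth muscle markers. It was -1.77 for endothelial, -1.57 for neuron and glia, -1.5 for fat and 5.6 for mesothelial markers. For fibroblast markers it was -0.64 in the control arm and 0.85 in the 2'-FL arm, or -0.81 and 0.07 when corrected. Endothelial markers, 8 of 8 tested, summed to 24.4 to 153 CPM in Pre and 29.6 to 45.5 in Post. Of the 8, 6 fell over both arms and 7 in the corrected fit, beside 31.1% and 25.3% of all genes. The lowest endothelial sum was in Pre control 1, the library lowest in collagen among the Pre libraries. Fibroblast markers other than collagens summed to 255 to 474 CPM in Pre, 189 to 246 in Post control and 270.2 to 428 in Post 2'-FL. With 2'-FL after resection 4 of the 8 were higher and 1, Gsn, was lower, beside 18.8% and 19.3% of all genes. The corrected fit called 3 higher and 0 lower, beside 9.86% and 12.8%. Smooth muscle markers summed to 746 to 1760.0 CPM in Pre, 528 to 826 in Post control and 1316 to 1566 in Post 2'-FL. Neuron and glia markers summed to 15.4 to 32.9 CPM in Pre and 5.66 to 12.3 in Post. Of 7 tested, 6 were lower over both arms and 7 in the corrected fit, beside the same 31.1% and 25.3% of all genes. Mesothelial markers summed to 0 to 0.635 CPM in Pre and 7.49 to 18.3 in Post, and Upk3b, Msln and Lrrn4 rose. Fat markers reached 335 CPM in Pre 2'-FL 1, against 62.55 and 92.02 in Pre 2'-FL 2 and 3. They summed to 65.0 to 81.0 in Pre control, 100 to 131 in Post control and 82.65 to 109.8 in Post 2'-FL. Their median log2 change was -0.26 in the control arm and -2.45 in the 2'-FL arm. Pancreas markers had 0 counts for 4 of 5 genes. Of 7 epithelial markers, 3 were lower with 2'-FL after resection and 5 in the corrected fit, beside 19.3% and 12.8% of all genes. In either fit 0 were higher. The part of these marker shifts in the collagen changes was not tested.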

How the data were processed

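Per the file headers and values, the 12 files hold estimated counts per gene, deposited by the authors as raw; 15.2% to 20.5% of entries were not whole numbers (tolerance 0.01), and all were rounded before testing. The build mm10 and the tool DESeq are named in the submitters' processing notes; aligner, counter, annotation and strand are not given in the sources used here. Repeated entries of a gene (486) were summed.

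Genes were filtered by filterByExpr, scaled by TMM and tested with edgeR 4.0.16 in R 4.3.3 (quasi-likelihood, 4 group means, 8 residual degrees of freedom, biological coefficient of variation 0.238), two-sided, with Benjamini-Hochberg adjustment over 13154 genes. Log2 levels used a prior count of 2. The corrected fit used per-library natural splines (4 df) on log2 length and GC of GENCODE transcripts, known for 13053 genes. The analysis was tested on simulated data. Alternatives were DESeq2 1.42.0, other size factors, no filter, only the groups compared, a replicate block and leaving out each library; leaving out libraries in the corrected fit was added after seeing the data.

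The members and lists were chosen with earlier results of these data known. Genes with a mean of at least 10 CPM are given by library, called genes with their change, and up to 4 per partner list by smallest p over both arms. The main fit did not pair libraries by number, since the labels do not say whether equal numbers are the same mouse. One gene of the likeness comparison is not reported here.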

Additional observations from a re-analysis of the deposited data

How the results depend on the processing

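For single collagen genes, 44 gene and comparison pairs were followed. Both reversals came with the length and GC correction in the 2'-FL arm: Col16a1 to 0.118, and to 0.126 with the replicate block as well, and Col5a1 to 0.005. These 2 reversed pairs were no longer called. Apart from them, the correction cost 23 calls, kept 15 and added 4. Leaving out libraries cost a call in 52 of 360 cases. The causes were not tested.

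Genes called lower in the control arm (5) numbered 11 by DESeq2, 10 without filter, 2 with only the groups compared, 1 when corrected and 0 to 18 leaving out libraries. In the 2'-FL arm (16) the corrected count was 3, and over both arms (16) it was 9. With 2'-FL after resection, 1 lower became 0 when corrected and 0 to 2 leaving out libraries, and 2 higher became 5 by DESeq2, 6 when corrected, 4 with only the groups compared and 0 to 3 leaving out libraries. The interaction called 0 to 1 in each direction leaving out libraries. In the corrected fit, leaving out libraries gave 0 to 14 lower in the control arm, 0 to 5 lower and 0 to 3 higher in the 2'-FL arm, 6 to 14 lower over both arms and 1 to 7 higher with 2'-FL after resection.

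The labels do not say whether equal library numbers are the same mouse. Between Pre and Post, correlations of same-numbered deviations from group means were -0.097, 0.164 and 0.056 in the control arm. They were -0.118, -0.059 and 0.22 in the 2'-FL arm. Between the arms they were 0.419, 0.047 and 0.051 in Pre and 0.102, -0.225 and -0.112 in Post. With 3 libraries a group these values cannot settle the pairing. With the replicate block, 7, 16 and 16 genes were lower in the control arm, 2'-FL arm and both arms, and 1 lower and 2 higher with 2'-FL after resection. The replicate block with the correction gave 2 lower in the control arm, 3 lower and 1 higher in the 2'-FL arm, 9 lower over both arms, and 0 lower and 4 higher with 2'-FL after resection.

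For the fibrillar minus type IV difference in the control arm (1.042), dropping the filter gave 0.897, counting types XV and XVIII as basement membrane 0.87 and summed CPM 0.737. Summed CPM gave 1.968 in the 2'-FL arm (0.209, and -0.136 to 0.526 leaving out libraries), 1.352 over both (0.625), 0.958 with 2'-FL after resection (-0.451), -0.273 before it (0.382) and 1.231 for the interaction (-0.833).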
